A study of Mus musculus with 6 samples.

Results

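Transcripts of 10 Notch pathway genes were examined in the maxillary prominence of mouse embryos, the tissue that forms the upper jaw and the palatal shelves. The 10 genes were 3 receptors (Notch1, Notch2 and Notch3), 2 ligands (Jag1 and Dll1) and 5 targets (Hey1, Hey2, Heyl, Hes1 and Hes5), found by their symbols in the mm10 annotation among 53801 genes with a count. The list was chosen by pathway membership after Hey2 was known to differ between the genotypes in these samples, so the values of Hey2 are given here as a description without a test. The question was whether the other 9 genes moved with it.

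RNA was sequenced from embryonic day 12.5 (E12.5) prominences of 3 WT samples and 3 Dlx2OE samples, all C57BL/6 by the sample labels and C57BL/6J in the study's methods. Dlx2OE embryos carried wnt1cre and 1 copy of an allele at Rosa26 in which a CAG promoter, held off by a stop cassette, drives Flag-tagged Dlx2, a homeobox transcription factor of the jaw-forming arches. The Wnt1 driver removes the stop in neural crest cells and their descendants, which make up most of the mesenchyme here. Epithelium, the endothelial lining of vessels and blood cells keep it. The labels give WT embryos neither Cre nor the allele, so an effect of Cre itself cannot be told apart from an effect of Dlx2. The tissue came from littermates, and whether a sample pools several embryos is not clear from the sources, so p-values measure only the spread between these samples.

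Notch receptors are bound by ligands on the surface of neighbouring cells and are then cut, first outside the membrane and then inside it by gamma-secretase. The freed intracellular part enters the nucleus, joins the DNA-binding protein RBPJ and switches on targets, best known among them the Hey and Hes genes, which encode basic helix-loop-helix repressors. In the face the pathway is known from Jag1, the gene altered in most people with Alagille syndrome, and from Jag2, which keeps the palatal shelves from fusing with the tongue.

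Gene totals were 26155500 to 31308813 counts per sample, and levels are given as CPM (counts scaled to a common library total) with library sizes adjusted by the trimmed mean of M values (TMM). Dlx2, the gene of the transgene, had a mean of 41.0 ± 5.32 CPM over the WT samples and 124 ± 5.96 CPM over the Dlx2OE samples (SD, n = 3) and rose by 1.60 on the log2 scale (SE 0.118, adjusted p = 0.00241 by edgeR's quasi-likelihood test). Reads that counting assigned to no feature were 5.026% to 5.429% of each WT library. They were 5.749%, 7.815% and 14.7% of Dlx2OE 1, 2 and 3. Whether such reads lay between genes or in introns cannot be told from the counts. Of 9 mesenchyme markers none was at 0, and their summed level was 1650 to 1980 CPM in WT and 2060 to 2490 CPM in Dlx2OE. By edgeR 2 of them passed the test, Twist1, higher, and Pax9, lower. By sign 6 were higher and 3 lower, with a median log2 fold change of 0.05. Prrx1, the largest part of the sum, had a mean of 555 CPM in WT and 818 CPM in Dlx2OE, while Barx1 had 241 and 151 CPM. In such bulk tissue, fewer cells of a type and less RNA per cell cannot be told apart.

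Hey2, a repressor best known from heart and vessel development, was the 1 gene of the 10 with a large difference. It lies at chr10:30832359-30842801 on the minus strand (mm10). WT 1, 2 and 3 held 196, 196 and 258 counts of Hey2, and Dlx2OE 1, 2 and 3 held 2623, 2271 and 1288. These were 6.7, 6.5 and 8.27 CPM in WT and 88.5, 72.3 and 47.6 CPM in Dlx2OE. Every Dlx2OE sample lay far above every WT sample, while the Dlx2OE samples differed among themselves, with sample 3 the lowest. The WT mean of Hey2 was 7.16 ± 0.971 CPM and the Dlx2OE mean 69.5 ± 20.6 CPM (SD, n = 3), 9.7-fold higher, a log2 fold change of 3.28 (SE 0.239).

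**Figure D1:**
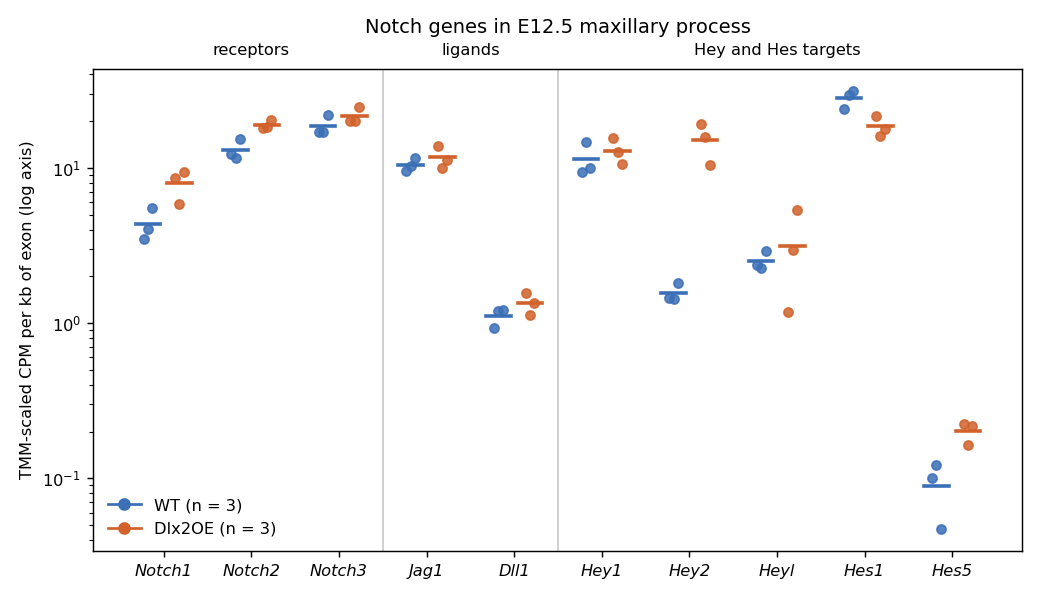
TMM-scaled CPM per kb of exon (log axis) of the 10 Notch genes in 3 WT and 3 Dlx2OE samples. Points are samples and bars are group means. Hey2 is the gene whose groups lie far apart, from a mean of 1.56 to 15.1, while Hes1 is lower in Dlx2OE and Heyl spreads from 1.17 to 5.34 within Dlx2OE.

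Hey2 and Hes5 were the Hey and Hes genes with a promoter in the RefSeq table (GRCm38.p6), which matched 7 of the 10 genes. Their upstream bases are shown because both hold TGGGAA, the core of the site that RBPJ binds, although Hey2 was among the changing genes and Hes5 was close to silent. Capitals mark TGGGAA or its reverse complement in the strand of the gene, and each run ends at the base before the annotated start.
Hey2, chr10:30842802-30843033, minus strand, GRCm38.p6: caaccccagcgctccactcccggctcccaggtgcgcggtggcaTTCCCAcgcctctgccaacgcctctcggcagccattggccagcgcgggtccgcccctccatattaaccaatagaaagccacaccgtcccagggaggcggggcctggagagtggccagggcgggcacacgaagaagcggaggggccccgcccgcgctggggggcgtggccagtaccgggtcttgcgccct
Hes5, chr4:154960673-154960922, plus strand, GRCm38.p6: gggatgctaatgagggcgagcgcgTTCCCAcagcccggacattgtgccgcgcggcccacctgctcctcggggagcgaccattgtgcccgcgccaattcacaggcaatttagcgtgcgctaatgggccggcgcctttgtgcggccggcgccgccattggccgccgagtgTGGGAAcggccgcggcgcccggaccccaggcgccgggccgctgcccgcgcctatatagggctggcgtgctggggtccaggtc

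The Hey2 run of 232 bases was 71.1% GC and held 1 copy, on the opposite strand, 207 bases before the RefSeq start, which lies 18 bases inside the GENCODE start. A second copy begins 3 bases before the RefSeq start and crosses it, outside the printed run. The Hes5 run of 250 bases was 71.6% GC and held 2 copies, beginning 226 and 82 bases before the start. Over all 32851 promoter windows of 250 upstream bases, searched on both strands, 21.6% held TGGGAA and 2.77% held it at 2 or more places. The letters are therefore common, and a match is a description of the sequence only.

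Among the other motifs searched on both strands, CACNAG, the N-box that Hes proteins bind, was present upstream of Notch1, Notch2 and Notch3 and in 36.7% of all windows. CACGTG, an E-box found in 6.02% of windows, was in none of the members' windows. The same held for the homeodomain core TAATTA (4.84% of windows) and for the Lef/Tcf sequences CTTTGAA (4.46%) and CTTTGAT (3.21%), which share their opening letters. No match says only that these letters are not in these upstream bases.

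Beside Hey2, 8 of the 10 genes had enough counts for the test and Hes5 did not. Of these 8, none passed an adjusted p of 0.05 with edgeR. Over all 17514 tested genes, 2.99% passed as higher in Dlx2OE and 3.46% as lower, and 3.12% passed with an absolute log2 fold change above 1 as well. Hey2 stands outside this count, since it was selected on its difference. Of the 8, 3 had an unadjusted p under 0.05 and 3 passed with DESeq2: Notch1 and Notch2, higher, and Hes1, lower. Unadjusted p-values under 0.05 were common over all genes, as an edgeR p of 0.0477 corresponded to an adjusted p of 0.165. Their share of all genes was not counted, so counts at an unadjusted p, here and below, are descriptions only. DESeq2 called 16.3% of the genes it tested. The median log2 fold change was 0.24 over the 8 genes without Hey2 and 0.00275 over all genes tested, and 7 of the 8 were higher in Dlx2OE by sign, of which Notch3 turned with a correction for gene length and GC content and Heyl without Dlx2OE replicate 3. Groups did not overlap for 3 of the 8 (Notch1, Notch2 and Hes1), against 34.1% of all genes.

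Of the receptors, Notch1 and Notch2 lay just outside the threshold and Notch3 did not come near it. Notch1, the receptor that acts most widely in the embryo, was at 49.4, 57.6 and 78.4 CPM in WT and at 123, 83.3 and 134 CPM in Dlx2OE. All 3 Dlx2OE samples were above the highest WT sample, with sample 2 only just above it. Notch1 had a log2 fold change of 0.87 (SE 0.218, 95% interval 0.37 to 1.38), a 1.83-fold difference, with an adjusted p of 0.0542 by edgeR and 0.00146 by DESeq2. Without Dlx2OE replicate 3 its log2 fold change was 0.74 (edgeR adjusted p = 0.141), and without WT replicate 3 it was 1.07 (edgeR adjusted p = 0.0293).

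Notch2 was at 132, 125 and 166 CPM in WT and at 194, 197 and 218 CPM in Dlx2OE. The groups were apart, and the Dlx2OE samples lay close together. The difference in Notch2 was 0.53 on the log2 scale (SE 0.129, 95% interval 0.23 to 0.83), 1.44-fold, with an adjusted p of 0.0515 by edgeR and 0.0038 by DESeq2. Without WT replicate 3 its log2 fold change was 0.65 (edgeR adjusted p = 0.0155), and with any other sample left out it missed the threshold, with the smallest value, 0.44, without WT replicate 2 (edgeR adjusted p = 0.183).

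Notch3, a receptor typical of pericytes and smooth muscle, was at 137, 137 and 177 CPM in WT and at 161, 162 and 199 CPM in Dlx2OE. Its groups overlapped. For Notch3 the log2 fold change was 0.21 (SE 0.142, 95% interval -0.12 to 0.54, adjusted p = 0.345 by edgeR). Of the 8 pericyte and smooth muscle markers tested, 7 were lower in Dlx2OE by sign, with a median log2 fold change of -0.91 over the 8. By edgeR 1 passed the test, Rgs5, which fell by 1.21 on the log2 scale, and 2 passed with DESeq2. The summed level of the list was 224 to 266 CPM in WT and 178 to 243 CPM in Dlx2OE. Pdgfrb, the 1 marker higher by sign, made up 127, 128 and 155 CPM of the WT sums. In the Dlx2OE sums it made up 134, 152 and 162 CPM. The part of these cells in the Notch3 values was not tested.

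The receptor genes are long, with 14.2, 10.8 and 8.09 kb of exon for Notch1, Notch2 and Notch3, and their differences shrank when the counts were corrected for gene length and GC content. With that correction the log2 fold changes were 0.49 for Notch1 (edgeR adjusted p = 0.0822), 0.26 for Notch2 (edgeR adjusted p = 0.195) and -0.06 for Notch3 (edgeR adjusted p = 0.761), so the sign of Notch3 turned. That of Hey2 stayed at 3.31. Part of the exon sequence of Notch1 (9.76%), Notch2 (5.02%) and Notch3 (6.03%) overlaps exons of another gene, and the library kit named in the labels does not mark strand. Reads that counting found ambiguous between genes, 5.975% to 6.902% of each library, were given to no gene. How many of them lay in those stretches cannot be told from the counts.

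Set against each other per kb of exon, Notch3 was the most abundant of the receptors in both genotypes and Notch1 the least. The ratio of Notch3 to Notch2 was 1.39, 1.45 and 1.42 in WT and 1.11, 1.10 and 1.21 in Dlx2OE. These ranges did not overlap, whereas the ratio of Notch1 to Notch2, at 0.284 to 0.358 in WT and 0.320 to 0.478 in Dlx2OE, did. The receptor sum was 32.6 to 42.8 CPM per kb in WT and 44.2 to 54.2 CPM per kb in Dlx2OE.

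The differences in both ligands missed the test. Jag1, a ligand needed in crest-derived facial tissue and in vessels, was at 55.5, 60.3 and 66.8 CPM in WT and at 80.9, 58.1 and 65.5 CPM in Dlx2OE. Dlx2OE 1 alone lay above the WT samples. Its log2 fold change was 0.16 (SE 0.139, 95% interval -0.16 to 0.48, adjusted p = 0.452 by edgeR), and without Dlx2OE replicate 1 it was 0.01.

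Dll1, a Delta ligand known from segmentation and neurogenesis, was scarce, with 115, 153 and 161 counts in WT and 195, 150 and 154 counts in Dlx2OE. These counts were 3.93, 5.08 and 5.16 CPM in WT and 6.58, 4.78 and 5.69 CPM in Dlx2OE, and the groups overlapped. Dll1 had a log2 fold change of 0.27 (SE 0.218, 95% interval -0.24 to 0.77, adjusted p = 0.438 by edgeR). Exons of another gene overlap 20.5% of the Dll1 exon sequence.

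The targets did not move as a group. Hey1, the closest relative of Hey2, was at 30.8, 47.8 and 32.5 CPM in WT and at 50.7, 41.0 and 34.7 CPM in Dlx2OE. The genotypes overlapped over most of their range. The log2 fold change of Hey1 was 0.19 (SE 0.202, 95% interval -0.28 to 0.65, adjusted p = 0.558 by edgeR), and the upper end of that interval is far below the difference seen in Hey2.

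Heyl, the remaining member of the Hey family, was at 12.1, 11.7 and 14.8 CPM in WT and at 5.97, 15 and 27.3 CPM in Dlx2OE. Dlx2OE 1 lay below every WT sample and Dlx2OE 3 above every one. For Heyl the log2 fold change was 0.32 (SE 0.453, adjusted p = 0.658 by edgeR), and it turned to -0.29 without Dlx2OE replicate 3. The summed level of 11 neuron markers ordered the Dlx2OE samples in the same way, at 308, 871 and 1870 CPM in samples 1, 2 and 3. The WT sums were 181 to 480 CPM. The same order held for the reads assigned to no feature and for the summed pericyte and smooth muscle markers (178, 216 and 243 CPM). It also held for the summed glia (95.9, 202 and 329 CPM) and skeletal muscle markers (69.5, 129 and 194 CPM). All 11 neuron markers were higher in Dlx2OE by sign, with a median log2 fold change of 1.095. None of the neuron markers passed the test by edgeR (5 had an unadjusted p under 0.05 and 3 passed, higher, with DESeq2). The part of any of these marker lists or reads in the Heyl values was not tested.

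Hes1, a repressor of neuronal and other differentiation, was the 1 gene of the 9 tested that was lower in Dlx2OE. Its levels were 48.4, 60.0 and 63.6 CPM in WT and 44.1, 32.7 and 36.3 CPM in Dlx2OE. The groups did not overlap, and Dlx2OE 1 and WT 1 were the closest pair. The log2 fold change of Hes1 was -0.60 (SE 0.148, 95% interval -0.95 to -0.26), 1.52-fold lower, with an adjusted p of 0.0519 by edgeR and 0.00702 by DESeq2. Without Dlx2OE replicate 1 its edgeR adjusted p was 0.0245, and with the length and GC correction its log2 fold change was -0.44 (edgeR adjusted p = 0.138).

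Markers of other cell types moved in both directions. Sox2, a marker of neural progenitors, fell by 1.67 on the log2 scale (adjusted p = 0.00844 by edgeR), and the epithelial keratins Krt8 and Krt18 fell by 2.11 and 1.85. Another keratin of that list, Krt5, went the other way by 1.91 without passing (adjusted p = 0.0792 by edgeR). It was at 42.7, 91.7 and 79.5 CPM in WT and at 538, 121 and 147 CPM in Dlx2OE. Of 6 tested neural progenitor and retina markers 2 were higher by sign and 4 lower, and of 10 surface epithelium markers 4 were higher and 6 lower. The summed level of the first list was 185 to 237 CPM in WT and 166 to 199 CPM in Dlx2OE, and that of the second was 755 to 1340 CPM in WT and 599 to 1900 CPM in Dlx2OE. The part of these cells in the Hes1 values was not tested.

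Hes5, which in many tissues is the target most closely tied to Notch activity, was near the limit of detection. It had 4, 5 and 2 counts in WT and 9, 7 and 8 counts in Dlx2OE, or 0.0641 to 0.166 CPM and 0.223 to 0.304 CPM, where 3 counts are 0.0955 to 0.111 CPM. These counts were too few for the test, and 31.8% of its exon sequence overlaps another gene.

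The make-up of the Hey transcripts changed as the total rose. Hey2 was selected on its difference, and its values enter its share, the Hey total and the ratio of Hes1 to Hey2. These are therefore given as a description and are not a further result. Per kb of exon, Hey2 was 11%, 7.73% and 12.3% of the summed Hey1, Hey2 and Heyl level in WT 1, 2 and 3. It was 53.6%, 50.4% and 39.3% in Dlx2OE 1, 2 and 3. Hey1 was the leading Hey transcript in every WT sample, while Hey2 led in Dlx2OE 1 and 2 and was level with Hey1 in Dlx2OE 3, where Hey1 was 40.4%. The summed Hey level was 13.2 to 18.3 CPM per kb in WT and 26.3 to 36.0 CPM per kb in Dlx2OE. Without Hey2 the sum of Hey1 and Heyl was 11.8 to 16.9 CPM per kb in WT and 15.5 to 16.7 CPM per kb in Dlx2OE, with the ranges overlapping. The ratio of Hes1 to Hey2 was 16.3, 20.8 and 17.3 in WT and 1.12, 1.02 and 1.72 in Dlx2OE.

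**Figure D2:**
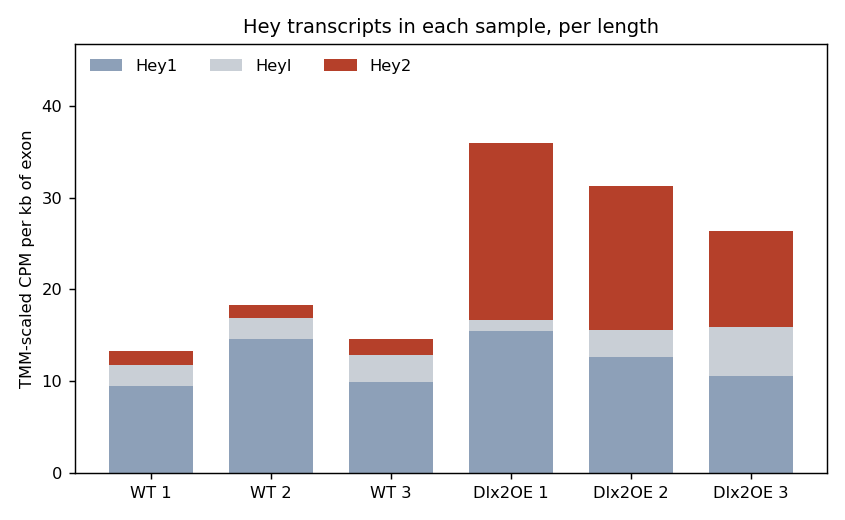
Stacked bars of TMM-scaled CPM per kb of exon for Hey1, Heyl and Hey2 in each of the 6 samples. The Hey2 segment is 7.73% to 12.3% of the bar in WT and 39.3% to 53.6% in Dlx2OE, while the Hey1 and Heyl segments together stay between 11.8 and 16.9 in all samples.

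Ordered by mean level per kb of exon, the WT samples ran from Hes1 (28.1 ± 3.89 CPM per kb, SD, n = 3) through Notch3 (18.6 ± 2.86), Notch2 (13.1 ± 2.02), Hey1 (11.3 ± 2.86), Jag1 (10.4 ± 0.975) and Notch1 (4.34 ± 1.05) to Heyl (2.52 ± 0.338), Hey2 (1.56 ± 0.211), Dll1 (1.12 ± 0.163) and Hes5 (0.0897 ± 0.0384). Among neighbours in that order, Notch2 and Hey1, and Hey1 and Jag1, overlapped between samples and the others did not. In Dlx2OE, Notch3 was first at 21.5 ± 2.66 CPM per kb, and Hey2 moved from rank 8 to rank 4 at 15.1 ± 4.49 CPM per kb. Each neighbouring pair from Notch3 through Notch2, Hes1, Hey2 and Hey1 to Jag1 overlapped there, although Notch3 and Notch2 lay above Hey1 and Jag1 in every sample.

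Genes whose pattern over the 6 samples was most like that of Hey2 were also listed, as a description. Likeness was measured as the root mean square difference between centred log2 CPM profiles, among 13224 genes with a mean log2 CPM of at least 1. The genes most like Hey2 were Lef1, a nuclear effector of Wnt signalling (difference 0.123), Lix1 (0.264), Glis1, a zinc finger factor (0.338), Vgll3, a cofactor of TEAD factors (0.395), and Sstr1, a somatostatin receptor (0.403). Lef1 was at 14.1, 13.2 and 14.6 CPM in WT and at 161, 129 and 104 CPM in Dlx2OE, with samples 1, 2 and 3 in the same order as for Hey2. Of the list, Notch1 was nearest at 1.25 (rank 287 of those genes), followed by Notch2 at 1.38 (rank 722), and Hes1 was the farthest at 1.93 (rank 11864). The measure rests on the Hey2 values themselves and mostly follows the size of the genotype difference, and the 6 samples share their libraries.

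A wider list of 51 other Notch pathway genes was read by role, with 46 of them tested. Of these, 1 was higher in Dlx2OE (Mib1) and 1 was lower (Psenen) at an adjusted p of 0.05 by edgeR. Neither was past an absolute log2 fold change of 1. An unadjusted p under 0.05 was found for 12 of the 46. Such values were common over all genes, where an edgeR p of 0.0477 had an adjusted p of 0.165, so this count is a description only. The median log2 fold change was 0.07, with 27 genes higher by sign and 19 lower, where 8807 of all 17514 tested genes were higher. DESeq2 passed 6 of them, and these, chosen after their values were seen, were Mib1, Dtx4 and Ep300, higher, and Dll3, Psenen and Hes6, lower, where DESeq2 called 16.3% of all genes. Groups did not overlap for 14 of the 46, against 34.1% of all genes.

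**Figure D3:**
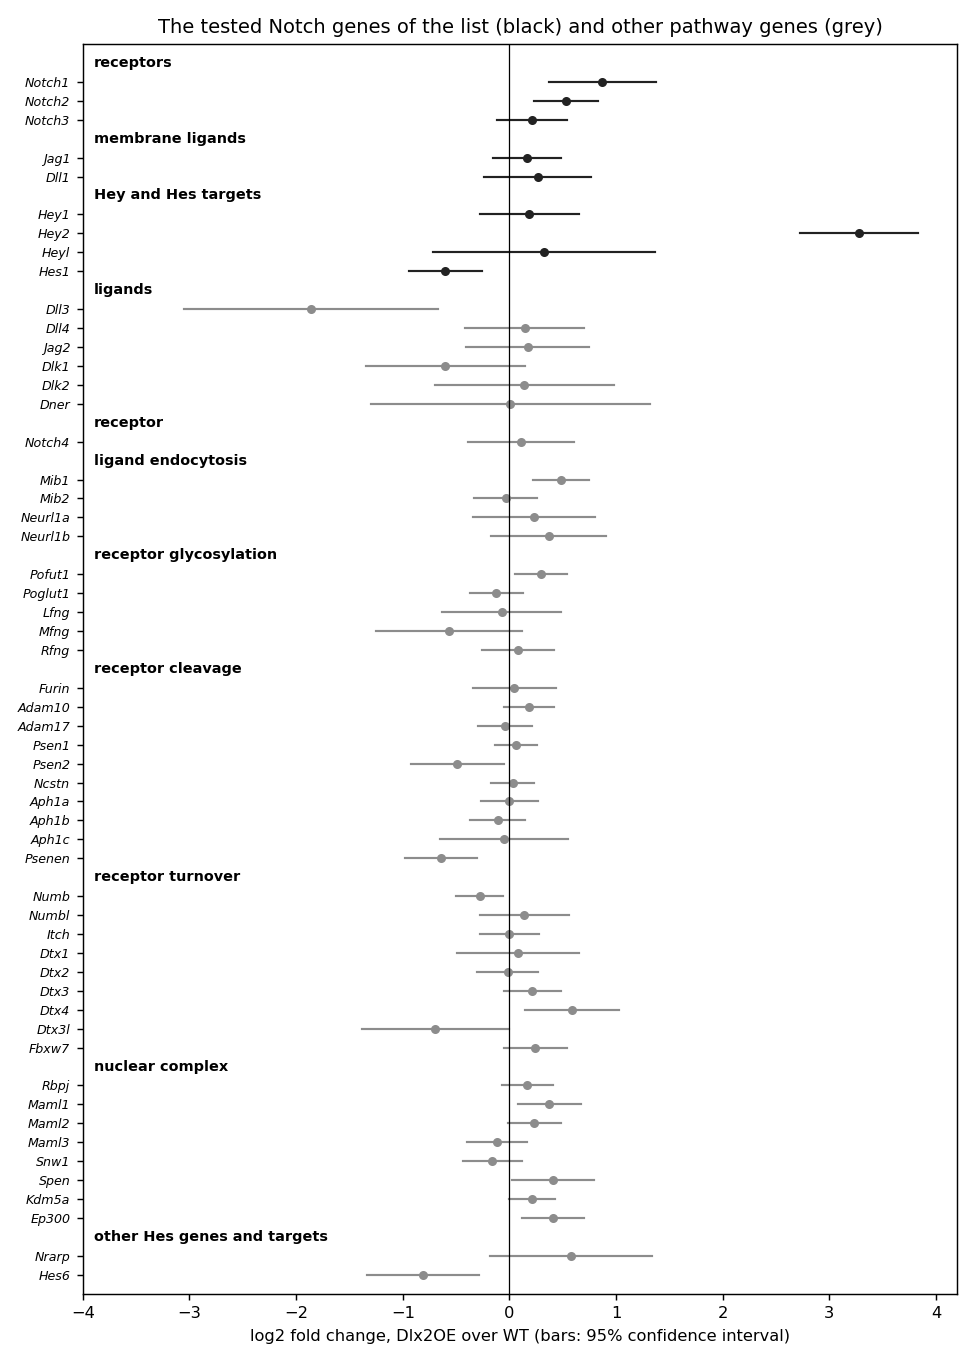
Log2 fold change of Dlx2OE over WT with 95% confidence interval for the 9 tested genes of the list (black) and for the other tested pathway genes except 1 (grey), grouped by role. Hey2, on whose difference the list was selected, is at 3.28. Of the grey genes, Mib1 at 0.48 and Psenen at -0.64 passed the test.

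Mib1, the ubiquitin ligase that lets ligand-bearing cells pull on the receptor, was the 1 of 4 ligand endocytosis genes that passed the test. It was at 153, 138 and 176 CPM in WT and at 215, 216 and 223 CPM in Dlx2OE, a log2 fold change of 0.48 (SE 0.113, adjusted p = 0.0451 by edgeR). The groups did not overlap. With the length and GC correction the log2 fold change of Mib1 was 0.31 (edgeR adjusted p = 0.124).

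Psenen, a small subunit of gamma-secretase, was the 1 of 10 receptor cleavage genes that passed the test, while 6 of the 10 were lower by sign. It was at 52.8, 55.5 and 38.5 CPM in WT and at 32.1, 31.7 and 30.1 CPM in Dlx2OE, with no overlap. The log2 fold change of Psenen was -0.64 (SE 0.146, adjusted p = 0.0426 by edgeR), and with the length and GC correction it was -0.40 (edgeR adjusted p = 0.0926). Exons of another gene overlap 9.33% of its sequence.

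In the remaining roles no gene passed with edgeR, and abundant genes of these roles are given as examples. Among 6 other ligands, Dlk1, a Delta-like protein without the usual ligand domain, had a log2 fold change of -0.60 (SE 0.324, adjusted p = 0.25 by edgeR). Dll3, a Delta relative that stays inside the cell and was named after its values were seen, was scarce, at 1.81, 4.02 and 4.33 CPM in WT and 0.608, 0.541 and 1.66 CPM in Dlx2OE. The samples of Dll3 did not overlap, and its log2 fold change was -1.86 (SE 0.516, adjusted p = 0.0666 by edgeR and 0.00606 by DESeq2). Notch4, the receptor of vessels, had a log2 fold change of 0.10 (SE 0.216, adjusted p = 0.769 by edgeR). All 10 endothelial markers were lower in Dlx2OE by sign, with a median log2 fold change of -0.40. By edgeR 1 of them passed, Emcn, which fell by 0.98 on the log2 scale, and 3 passed with DESeq2. The summed endothelial level was 352 to 497 CPM in WT and 253 to 380 CPM in Dlx2OE, with the ranges overlapping.

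Poglut1, 1 of 5 enzymes that add sugars to the receptor, had a log2 fold change of -0.12 (SE 0.109, adjusted p = 0.468 by edgeR). Itch, a ubiquitin ligase among 9 genes of receptor turnover, had a log2 fold change of 0.00 to 2 decimals (SE 0.121). In the nuclear complex, 9 of 10 genes were tested and none passed by edgeR, while 3 had an unadjusted p under 0.05 and 1 passed with DESeq2. Rbpjl was the gene of that complex left untested for low counts.

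Hes6, a Hes relative that does not depend on Notch in the usual way, was at 51.1, 78.9 and 52.1 CPM in WT and at 26.1, 34.4 and 43.5 CPM in Dlx2OE. The samples did not overlap, and the log2 fold change of Hes6 was -0.81 (SE 0.227, adjusted p = 0.0687 by edgeR). Hes2, Hes3, Hes7 and Helt had too few counts to test.

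**Figure D4:**
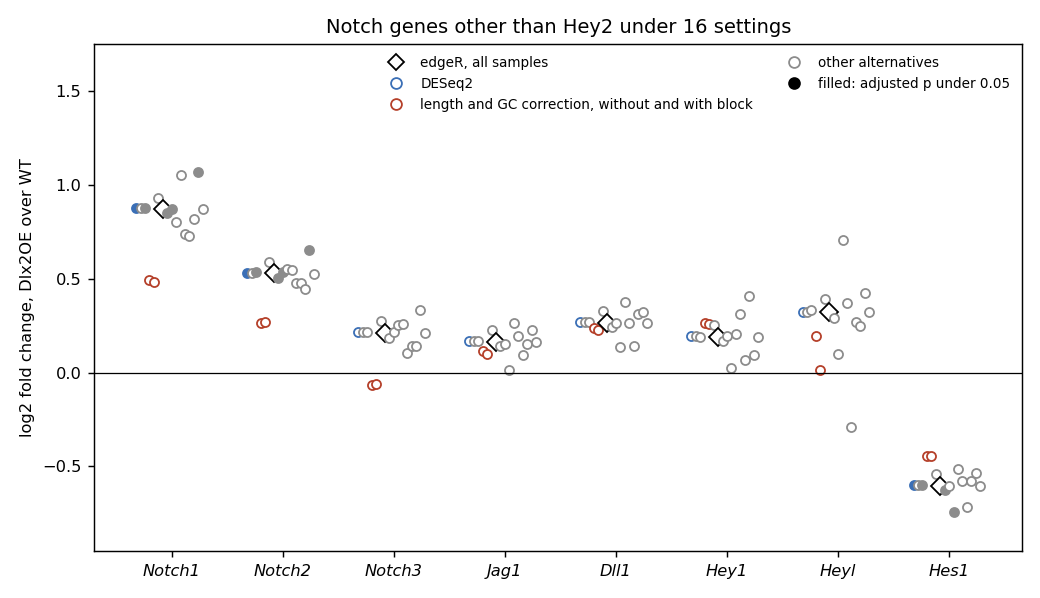
Log2 fold change of Dlx2OE over WT (vertical axis) for the 8 tested genes of the list other than Hey2, by edgeR on all samples (diamond) and under 15 alternatives (circles; filled where the adjusted p is under 0.05). Notch1, Notch2 and Hes1 cross the threshold under some alternatives and keep their sign under all, whereas Notch3 turns under the length and GC correction and Heyl without Dlx2OE replicate 3.

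Over the 15 alternatives, the adjusted p was under 0.05 in 5 for Notch1 (range 0.00146 to 0.192), 5 for Notch2 (0.0038 to 0.219) and 4 for Hes1 (0.00702 to 0.184), from edgeR or DESeq2. It was under 0.05 in none for Notch3, Jag1, Dll1, Hey1 or Heyl. The log2 fold change of Hey2 ranged from 3.06 to 3.49 over the same alternatives.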

How the data were processed

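The authors sequenced poly-A RNA of 3 WT and 3 Dlx2OE maxillary prominence samples and deposited raw counts per gene, 1 file per sample, without normalization. Tools named in the submitters' processing notes are FastQC, STAR 2.7.3a and HTSeq 0.12.4 with mm10. The annotation release and the strand setting were not given in the sources used here. Summary lines, 16.8% to 25.27% of reads, were left out of library sizes. Symbols, positions and exon lengths came from GENCODE release 21 (GRCm38), which held 53706 of 53801 identifiers. The other 95 were kept under their identifiers.

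The test was that of edgeR 4.0.16, run in R 4.3.3 (quasi-likelihood F test on genotype, TMM scaling, filterByExpr with a minimum count of 10), with Benjamini-Hochberg adjustment over 17514 genes. A gene passed at an adjusted p under 0.05, and the study's call also asks for an absolute log2 fold change above 1. Levels are TMM-scaled CPM, log2 CPM profiles used a prior count of 2, intervals are 95%, and the floor of 3 counts covers counting error only. DESeq2 1.42.0 gave an adjusted p for 16139 genes and the others stayed NA. The length and GC correction was a loess fit with span 0.5. The other alternatives were RLE factors, library size alone, no filter or 10 counts in every sample, the replicate number as a block, leaving out mitochondrial and haemoglobin genes, and leaving out each sample in turn. The test was checked on simulated counts, where 50% of genes changed by a log2 of 1 were recovered (17226 genes tested, 3 false calls). Of those changed by a log2 of 2, 90% were recovered (17214 genes tested, 10 false calls). Only a small part of the genes was changed, and the counts followed the dispersion trend alone. The simulation thus held no gene-specific spread and no difference in cell content between samples.

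The 10 genes, the pathway list and the marker lists were chosen with earlier results of these data known. Named beside the 10 were Dlx2, the pathway and marker genes that passed (up to 3 per marker list), the most abundant gene of a role in which none passed, and the 5 profiles most like Hey2. The values of 1 gene of the nuclear complex are not reported here, although it is in the counts. Marker lists not given above were glia (6 tested, 0 passed by edgeR or DESeq2, 1 with an unadjusted p under 0.05, 151 to 160 CPM summed in WT and 95.9 to 329 CPM in Dlx2OE, with Foxd3 at 0), macrophage (8 tested, C1qa and C1qb lower, 78.0 to 83.6 CPM and 49.5 to 55.3 CPM), erythroid (8 tested, Hba-a1, Hba-a2 and Alas2 lower, 2730 to 3500 CPM and 1560 to 2230 CPM) and skeletal muscle (7 tested, 0 passed by edgeR and 1 by DESeq2, 3 with an unadjusted p under 0.05, 168 to 360 CPM and 69.5 to 194 CPM).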

Additional observations from a re-analysis of the deposited data

Results flagged for a closer look

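Reads assigned to no feature, which entered no test above, were a larger share of each Dlx2OE library than of any WT library. They were 5.749%, 7.815% and 14.7% of Dlx2OE 1, 2 and 3, against a highest WT share of 5.429%. Within Dlx2OE, Heyl followed the same order (5.97, 15 and 27.3 CPM) and Hey2 the opposite order (88.5, 72.3 and 47.6 CPM), and whether the shares bear on either gene was not tested.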

How the results depend on the processing

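Hey2 kept a log2 fold change of 3.06 to 3.49 under all 15 alternatives. Hey2 was selected on its difference and is left out of what follows. No other listed gene passed with the main test, which called 6.45% of all genes. Notch1 and Notch2 passed higher in Dlx2OE without a filter and with 10 counts in every sample, where 6.09% and 7.68% of all genes were called. They also passed with the replicate block (5.49% of all genes called) and with DESeq2 (16.3%). When samples were left out, both passed without WT replicate 3 (11.5%) and neither in any other case. Hes1 passed lower without a filter, with 10 counts in every sample, with DESeq2 and without Dlx2OE replicate 1 (10.7%), and not otherwise. Past an absolute log2 fold change of 1, Notch1 alone passed, and only without WT replicate 3. Of the other pathway genes, the count higher went from 1 to 0 with the replicate block and with the length and GC correction with or without the block, to 3 with DESeq2, and to 0 to 3 when samples were left out (3 without WT replicate 3, 0 without any other). The count lower went from 1 to 3 without a filter and with DESeq2, to 0 with the length and GC correction, and to 0 to 2 when samples were left out (2 without Dlx2OE replicate 1). Leaving out samples also moved the share of all genes called, from 6.45% to between 0.438% (without WT replicate 2) and 11.5% (without WT replicate 3). The causes were not tested. Notch3 turned to -0.064 with the length and GC correction and to -0.059 with that correction and the replicate block, and Heyl to -0.29 without Dlx2OE replicate 3, its highest value being 0.71 without Dlx2OE replicate 1. Library size alone moved the median log2 fold change of all genes to 0.07. Same-numbered samples did not deviate together (r = -0.0718, -0.211 and 0.0731 across genes), so the numbers were not taken to pair the samples, and the replicate block is given as an alternative only. With 3 samples per genotype, about 50% of genes changed by a log2 of 1 were recovered in simulation, and smaller changes were not simulated. That simulation changed few genes and held no gene-specific spread, so its share need not hold for the genes here.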
